A study of Mus musculus with 6 samples.

Results

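The genes described here are 10 genes of the unfolded protein response of the endoplasmic reticulum (ER): Hspa5, Hsp90b1, Xbp1, Atf6, Ern1, Dnajb9, Sdf2l1, Herpud1, Pdia4 and Calr. They were taken by symbol from a table of read counts of 23951 genes, and all 10 were present and kept by the filter on low counts. Haematopoietic stem cells (HSCs) of mouse fetal liver, all of strain C57BL/6, were compared between 3 wild type libraries (WT) and 3 libraries with a knockout of Uqcrfs1 (KO). Uqcrfs1 encodes RISP, the Rieske protein of mitochondrial complex III. The means of deletion and the embryonic age are not stated in the labels. Nor do they say if each library is a separate embryo, and the p-values reflect library spread alone, which may be technical. Total counts were 10191354 to 13189329 per WT library and 12020128 to 14590844 per KO library. Uqcrfs1 stood at 61.0 to 123 CPM (counts scaled to library size) in WT and 3.08 to 4.33 CPM in KO, which matched the labels in all 6 libraries. All 12 fixed markers of haematopoietic stem and progenitor cells were detected, with summed levels of 2416 to 2846 CPM in WT and 2131 to 2248 CPM in KO. Of these 12 markers 3 were lower in KO and 0 higher (edgeR; 7 lower and 0 higher at an unadjusted p under 0.05). Among all genes tested 4.99% were lower and 6.41% higher, or 12.3% and 12.7% at the unadjusted p. The log2 fold changes were -0.38 for Kit, -0.49 for Cd34 and -0.55 for Hlf. Of the 6 fits that left out 1 library, 2 kept the call of Kit, 5 that of Cd34 and 3 that of Hlf. The ribosomal RNA precursor Rn45s took 10.5% to 11.7% of the counts in WT and 4.96% to 9.92% in KO, so the groups did not overlap in this share either, and its part in the changes below was not tested.

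The ER folds secreted and membrane proteins, and unfolded protein in its lumen is sensed by the membrane proteins IRE1, encoded by Ern1, ATF6 and PERK, encoded by Eif2ak3. IRE1 splices Xbp1 messenger RNA into the form that encodes an active transcription factor, ATF6 is released by the site-1 and site-2 proteases in the Golgi, and PERK phosphorylates eIF2alpha, which favours translation of ATF4. The first pair of arms drives chaperones, disulfide isomerases and degradation factors through promoter elements such as the ER stress response element (ERSE). ATF4 can also be raised through eIF2alpha kinases that respond to signals outside the ER, a pathway known as the integrated stress response. Whether the ER arms move with the ATF4 arm in KO is the question asked of these genes.

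The promoters of 4 members are shown because they carry the letters of elements through which the ER arms, or ATF4, are known to act. Each is the 250 bases before the RefSeq start site on GRCm38.p6, written 5′ to 3′ on the strand of the gene, with element matches in capitals. The deposited counts rest on the mm9 build, and these coordinates were not used with them.
Hspa5, chr2:34771840-34772089, + strand: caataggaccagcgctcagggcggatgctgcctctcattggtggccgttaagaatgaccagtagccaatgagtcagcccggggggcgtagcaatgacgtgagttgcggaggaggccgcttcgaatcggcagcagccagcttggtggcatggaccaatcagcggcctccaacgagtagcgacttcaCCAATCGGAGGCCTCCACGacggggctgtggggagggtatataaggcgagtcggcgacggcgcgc
Hsp90b1, chr10:86705445-86705694, - strand: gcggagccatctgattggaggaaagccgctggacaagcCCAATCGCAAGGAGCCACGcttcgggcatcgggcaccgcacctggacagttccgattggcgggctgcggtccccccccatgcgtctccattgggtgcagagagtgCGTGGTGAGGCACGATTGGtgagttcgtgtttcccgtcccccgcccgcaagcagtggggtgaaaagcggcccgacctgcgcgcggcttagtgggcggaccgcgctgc
Calr, chr8:84846932-84847181, - strand: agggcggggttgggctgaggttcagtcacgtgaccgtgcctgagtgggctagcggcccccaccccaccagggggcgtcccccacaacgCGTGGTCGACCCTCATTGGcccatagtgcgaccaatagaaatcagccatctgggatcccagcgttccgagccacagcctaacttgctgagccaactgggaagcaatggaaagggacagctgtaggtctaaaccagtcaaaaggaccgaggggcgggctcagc
Herpud1, chr8:94386179-94386428, + strand: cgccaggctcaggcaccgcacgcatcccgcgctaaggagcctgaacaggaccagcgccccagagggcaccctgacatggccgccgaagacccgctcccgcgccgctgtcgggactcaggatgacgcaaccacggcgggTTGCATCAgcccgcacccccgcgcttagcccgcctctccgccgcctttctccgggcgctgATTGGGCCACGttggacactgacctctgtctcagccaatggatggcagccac
In Hspa5, Hsp90b1 and Calr the capitals mark the ERSE, searched on both strands as CCAAT, any 9 bases and CCACG. Hsp90b1 holds 2 of them, and those on the opposite strand read as CGTGG first and ATTGG last. In Herpud1 the capitals mark ATTGGGCCACG, a match to ERSE-II (ATTGG, any base and CCACG) that begins 52 bases before the start, and TTGCATCA, which begins 112 bases before it. The latter is the reverse complement of a match to TGATGNAA, the core of the C/EBP-ATF element (CARE) bound by ATF4.

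In windows from 250 bases before to 50 bases after the start, 3 of the 9 members with a RefSeq window (33.3%) held an ERSE, against 39 of 32851 windows (0.119%). In the most similar list, other ER folding genes, 5 of 24 genes with a window held one (20.8%), namely Dnajc3, Creld2, Canx, Pdia6 and Ero1b. The lists count genes with a match in any of their windows, and the background counts single windows. With the last 2 letters open, so that the element ends in CCA, 5 members matched (55.6%, against 1.09% of all windows), which added Herpud1 and Pdia4. ERSE and ERSE-II both end in CCACG, and the XBP1 element UPRE, searched as TGACGTGG, holds its reverse complement. UPRE letters were in 0 of the 9 member windows and in 0.676% of all. Herpud1 was the only member window with CARE letters, which 3.97% of all windows and 7 of the 19 matched genes of the ATF4 list (36.8%) held. It was also the only member window with ERSE-II, found in 12 of 32851 windows. The members were listed as genes of a response known to act through the ERSE, so a high share of matches was to be foreseen. These shares describe the lists and are no test. A match describes letters and does not show that a factor binds.

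Of the 10 members, 1 was lower in KO and 0 were higher at an adjusted p under 0.05 (edgeR quasi-likelihood test, Benjamini-Hochberg adjusted over 12204 genes). Among all genes tested 11.4% passed, 6.41% higher and 4.99% lower. DESeq2 and limma-voom also called 0 members higher. Each of them called 2 lower, Calr and Hspa5. The log2 fold changes of the members ran from -0.98 to 0.51 with a median of -0.19, beside a median of -0.02 over all genes tested. At an unadjusted p under 0.05, 2 members were higher and 4 lower, where 12.7% and 12.3% of all genes were. All 3 KO libraries lay above all 3 WT libraries for 2 members (15.7% of all genes) and below them for 2 (14.5% of all genes). The groups thus did not overlap for 4 members, where 30.2% of all genes showed this in either direction.

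**Figure D1:**
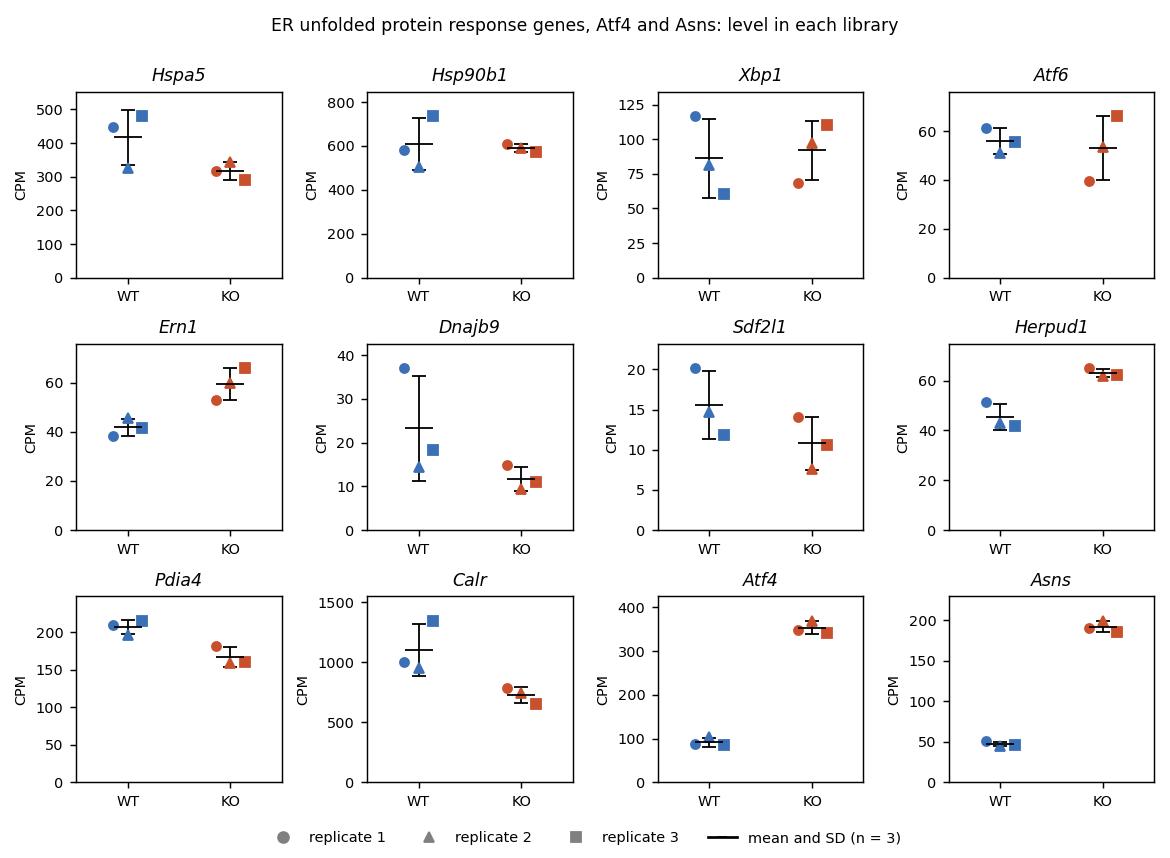
Level in CPM (vertical axes, each from 0) of the 10 ER genes and, for comparison, Atf4 and its target Asns in each WT (blue) and KO (red) library, with group means and SDs (n = 3 each). The KO points of Atf4 lie between 341 and 370 CPM and its WT points between 85.2 and 103 CPM, while in 6 of the 10 ER genes the groups overlap.

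Calr, which encodes calreticulin, the calcium-binding lectin chaperone of the ER lumen, was the member that fell. It stood at 1004, 951 and 1347 CPM in WT replicates 1 to 3 and at 786, 745 and 655 CPM in KO replicates 1 to 3. Every KO library lay below every WT library, and WT replicate 3 stood apart at the top. Calr fell by 33.8% (log2 fold change -0.60, SE 0.12, 95% interval -0.85 to -0.34, edgeR adjusted p = 0.00324). Its call was kept in each of the 6 fits that left out 1 library, with -0.42 and an adjusted p of 0.0170 without WT replicate 3 (edgeR) and a highest adjusted p of 0.0278. On the deposited RPKM values the change was -0.45 and did not pass (limma on log2(RPKM + 1), adjusted p = 0.147).

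Hspa5 encodes BiP, the HSP70 chaperone of the ER that also holds the sensors inactive, and its transcript is the usual marker of the response. It had 447, 325 and 481 CPM in WT and 318, 345 and 291 CPM in KO. The groups overlapped because WT replicate 2 lay at the KO level. The log2 fold change was -0.39 (SE 0.13, 95% interval -0.66 to -0.12), just short of the threshold in edgeR (adjusted p = 0.0540). It passed with DESeq2 (adjusted p = 0.0278), with limma-voom (adjusted p = 0.0487), with upper quartile scaling (adjusted p = 0.0417), with no filter on low counts (adjusted p = 0.00919) and in edgeR without WT replicate 2 (-0.54, adjusted p = 0.00512). In edgeR it stood at -0.27 without WT replicate 3 (adjusted p = 0.225). Of the 6 fits that left out 1 library, 1 called Hspa5. In edgeR it also did not pass with DESeq2 size factors (adjusted p = 0.0531) or the Y-linked covariate (adjusted p = 0.0669). The same held for length and GC offsets (adjusted p = 0.0871) and the replicate block (adjusted p = 0.0907). On log2(RPKM + 1) it did not pass either (limma, adjusted p = 0.179).

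Hsp90b1, the HSP90 chaperone of the ER known as GRP94, showed the smallest difference of the 10. Its levels were 582, 505 and 737 CPM in WT and 609, 592 and 574 CPM in KO, so the KO libraries lay inside the WT range. The log2 fold change was -0.04 with a 95% interval from -0.28 to 0.21 (edgeR adjusted p = 0.885). Its sign turned to 0.08 with length and GC offsets and to 0.13 without WT replicate 3. In the annotation used, 415 bases of its exons overlap the pseudogene 1810014B01Rik on the opposite strand. On the same strand, 84 bases overlap Gm15344 and 133 bases the microRNA gene Gm25745. No source used here gives the strand setting of the counts.

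Pdia4 encodes ERp72, a protein disulfide isomerase. It stood at 209, 196 and 216 CPM in WT and at 182, 159 and 160 CPM in KO, with every KO library below every WT library. The log2 fold change was -0.31 (SE 0.12, 95% interval -0.56 to -0.06) and did not pass (edgeR adjusted p = 0.0965).

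The co-chaperones had the fewest reads and the widest intervals. Dnajb9 encodes ERdj4, a J protein that works with BiP and is a known target of spliced XBP1. Its WT libraries held 369, 155 and 237 reads and its KO libraries 205, 142 and 140, or 37.0, 14.4 and 18.3 CPM against 14.8, 9.45 and 11.0 CPM. WT replicate 1 was 2.56 times WT replicate 2, and the lowest WT library lay below the highest KO library. The log2 fold change of -0.98 (95% interval -1.77 to -0.20) did not pass (edgeR adjusted p = 0.10), and it was -0.48 without WT replicate 1 (adjusted p = 0.553). Sdf2l1, a partner of ER J proteins, had 20.1, 14.7 and 11.8 CPM in WT and 14.1, 7.66 and 10.6 CPM in KO. The groups overlapped, with a log2 fold change of -0.53 and a 95% interval from -1.35 to 0.30 (edgeR adjusted p = 0.453).

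Herpud1 and Ern1 were the members that lay higher in every KO library, without passing the threshold. Herpud1 encodes HERP, a membrane protein of the ER-associated degradation complex. It had 51.3, 43.0 and 41.9 CPM in WT and 64.9, 61.8 and 62.4 CPM in KO. The KO libraries lay close together, above the highest WT library. The log2 fold change was 0.47 (SE 0.18, 95% interval 0.09 to 0.86, edgeR adjusted p = 0.106), and 0 of the 6 fits that left out 1 library called it (adjusted p 0.0914 to 0.215). The Herpud1 promoter, shown above, holds both ERSE-II and CARE letters, and their part in its level was not tested. The window of Ern1 held no match to the elements searched.

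Among the sensors, Ern1 had 38.4, 45.5 and 41.3 CPM in WT and 52.9, 59.7 and 65.8 CPM in KO, with no overlap. Its log2 fold change was 0.51 (SE 0.19, 95% interval 0.11 to 0.91, edgeR adjusted p = 0.0952). Atf6 had 61.2, 50.9 and 55.5 CPM in WT and 39.7, 53.5 and 66.2 CPM in KO. Its KO libraries spread over both sides of the WT range, and the log2 fold change was -0.07 (95% interval -0.50 to 0.35, edgeR adjusted p = 0.875). Xbp1, the transcription factor gene downstream of IRE1, had 117, 81.4 and 60.2 CPM in WT and 68.4, 97.4 and 110 CPM in KO. The log2 fold change was 0.10 (95% interval -0.38 to 0.57, edgeR adjusted p = 0.848), and its sign turned without WT replicate 3 (-0.10) or KO replicate 3 (-0.05). Counts per gene do not separate spliced from unspliced Xbp1, nor whole from cleaved ATF6.

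The libraries did not rank the members in 1 common order. In WT, replicate 3 was highest for Hspa5, Hsp90b1, Pdia4 and Calr, while replicate 1 was highest for Xbp1, Atf6, Dnajb9, Sdf2l1 and Herpud1. In KO, replicate 1 was lowest for Xbp1, Atf6 and Ern1 and highest for Hsp90b1, Dnajb9, Sdf2l1, Herpud1, Pdia4 and Calr. The spread within WT, as the highest over the lowest library, ran from 1.10 for Pdia4 to 2.56 for Dnajb9, and within KO from 1.05 for Herpud1 to 1.85 for Sdf2l1.

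Per gene length, Calr, Hsp90b1, Hspa5 and Pdia4 stood above the other 6 members. In deposited RPKM (reads scaled by gene length and depth), the WT levels were 450 ± 116 for Calr, 211 ± 41.5 for Hsp90b1, 173 ± 31.3 for Hspa5 and 84.1 ± 4.95 for Pdia4 (SD, n = 3). Next came Xbp1 at 31.8 ± 9.86, Dnajb9 at 25.8 ± 11.9, Herpud1 at 19.7 ± 1.70 and Sdf2l1 at 14.2 ± 3.77 RPKM. The sensors were lowest, Atf6 at 8.42 ± 0.721 and Ern1 at 7.74 ± 0.659 RPKM. Neighbours in this order whose WT libraries overlapped were Hsp90b1 with Hspa5, Xbp1 with Dnajb9, Dnajb9 with Herpud1, and Atf6 with Ern1. The first 5 places were the same in KO. Below them Herpud1 (26.4 ± 1.16 RPKM) stood above Dnajb9 (14.0 ± 3.84 RPKM), and Ern1 (11.2 ± 2.06 RPKM) above Sdf2l1 (9.87 ± 2.83 RPKM) and Atf6 (7.95 ± 1.56 RPKM).

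**Figure D2:**
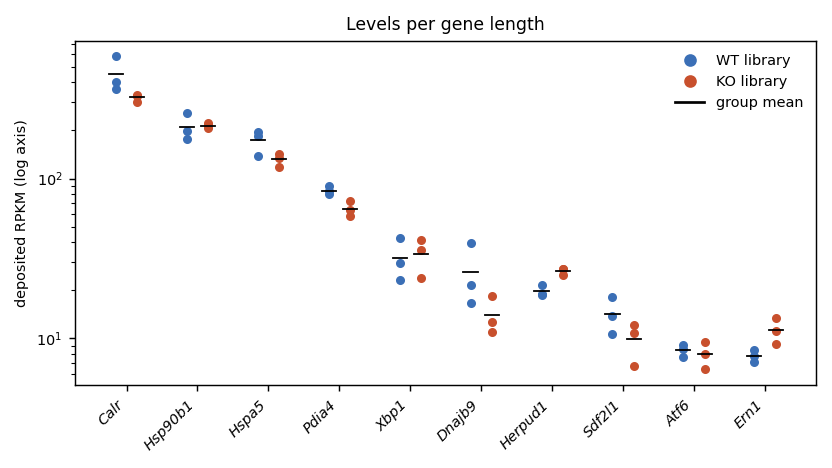
Deposited RPKM (log axis) of the 10 ER genes in each library, ordered by WT mean, with WT libraries in blue, KO libraries in red and group means as bars. WT means run from 450 RPKM for Calr to 7.74 RPKM for Ern1, and the KO points of Herpud1 and Ern1 lie above their WT points.

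The ATF4 arm rose, while 0 of the ER members passed the threshold as higher. Of 21 genes of the ATF4 list, 17 were higher in KO and 0 lower, with a median log2 fold change of 2.02 (edgeR; 19 higher and 0 lower at an unadjusted p under 0.05). DESeq2 and limma-voom each called 18 higher and 0 lower. Among all genes tested 6.41% were higher, or 12.7% at the unadjusted p (edgeR). The ATF4 list was chosen with earlier results of these data known, so its count describes the list and is no test. Atf4 itself had 86.9, 103 and 85.2 CPM in WT and 348, 370 and 341 CPM in KO. Its log2 fold change was 1.95, with a 95% interval from 1.70 to 2.20. The highest upper bound among the ER members, 0.91 for Ern1, lay below that interval. Ddit3, which encodes CHOP, the death-linked factor that PERK signalling induces through ATF4, went from 5.71 ± 2.81 to 28.3 ± 1.41 CPM (SD, n = 3 each; log2 fold change 2.31, edgeR adjusted p = 0.000524). Asns, asparagine synthetase, rose by 2.02 and Trib3, a pseudokinase, by 3.21 on the log2 scale. Slc7a5, an amino acid transporter, rose by 1.47.

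The difference from Atf4 was tested directly on the log2 ratio of each gene to Atf4 in each library (limma, adjusted over 12203 genes). All 10 members changed less than Atf4 by this test, as did 89.5% of all genes, so the count is close to what most genes show. None of the members changed more than Atf4, and 0.148% of all genes did. The differences were smallest for Ern1 at -1.44 (95% interval -1.89 to -0.99) and Herpud1 at -1.47 (95% interval -1.91 to -1.02), and largest for Dnajb9 at -2.83 (95% interval -3.60 to -2.05). The largest adjusted p of the 10 was 2.61e-07 (limma). All tests share the 6 Atf4 values, so they are not independent of each other. All 10 calls were kept with edgeR, with the replicate block and in each fit that left out 1 library.

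**Figure D3:**
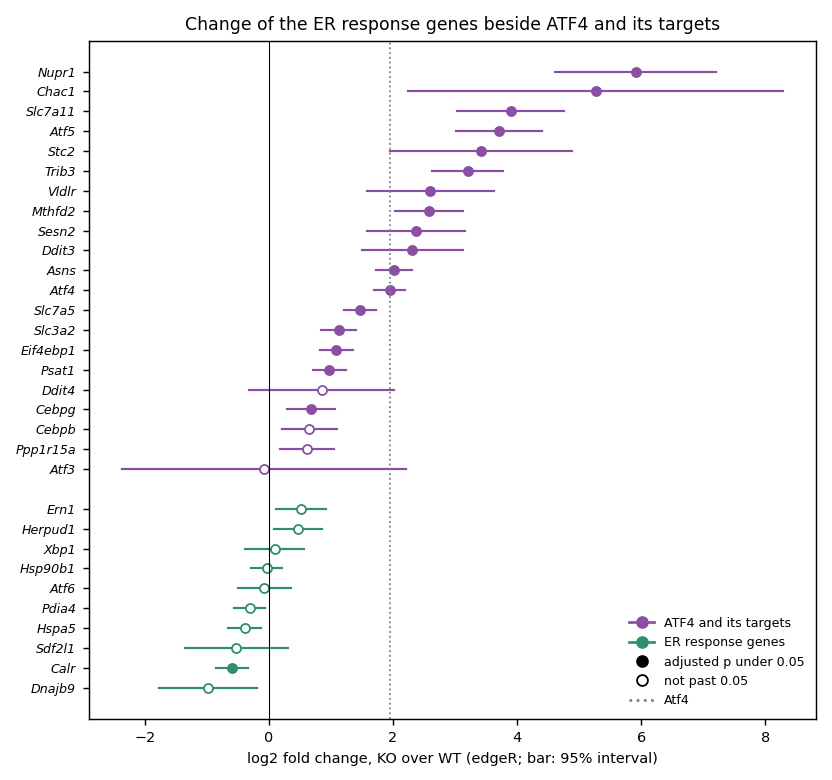
Log2 fold change of KO over WT (horizontal axis) with 95% intervals from edgeR for Atf4 with the 20 other genes of its list (purple) and the 10 ER genes (green); filled points passed an adjusted p of 0.05 and the dotted line marks Atf4. The ER genes lie between -0.98 and 0.51, left of the Atf4 line at 1.95, with Calr as the only filled point among them.

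PERK and the proteases of the ATF6 pathway did not differ detectably. Eif2ak3 had a WT level of 29.6 ± 14.3 CPM and a KO level of 23.0 ± 4.68 CPM (SD, n = 3 each; log2 fold change -0.37, 95% interval -1.02 to 0.29, edgeR adjusted p = 0.517). Mbtps1, the site-1 protease gene, changed by 0.09 (95% interval -0.20 to 0.37) and Mbtps2, the site-2 protease gene, by 0.03 (95% interval -0.59 to 0.65). Atf6b, the ATF6 paralogue, had a log2 fold change of 0.44 (95% interval -0.04 to 0.93, edgeR adjusted p = 0.245). Ppp1r15a encodes GADD34, the phosphatase subunit that reverses eIF2alpha phosphorylation and is a target of ATF4. It had a log2 fold change of 0.61 and did not pass (edgeR adjusted p = 0.0583).

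The 4 further lists, for ER folding, ER-associated degradation, import and export, and sensors with their partners, held 85 tested genes. Of these, 8 were lower and 0 higher (edgeR; 15 lower and 2 higher at an unadjusted p under 0.05). Over all genes tested 4.99% were lower and 6.41% higher, or 12.3% and 12.7% at the unadjusted p. The median log2 fold change was -0.15 over the 85 genes. By list it was -0.21 for folding, -0.15 for degradation, -0.25 for import and export and 0.02 for sensors and partners, of which 9 were positive and 7 negative. Among folding genes 3 of 27 fell, namely Dnajc3 (log2 fold change -0.72), which encodes a BiP co-chaperone, Manf (-0.70), a secreted ER stress protein, and Erp29 (-0.47), an ER lumen protein. Of 22 degradation genes 1 fell, Vcp (-0.32), the ATPase that extracts proteins from the membrane. In import and export 3 of 20 fell, Tram1 (-0.46), Sec61b (-0.57) and Ssr3 (-0.40), all of the translocation machinery. Of 16 sensor and partner genes 1 fell, Tmbim6 (-0.58), which encodes BAX inhibitor 1 of the ER membrane.

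These 8 calls differed in how firmly they stood. Tmbim6 passed in all 6 fits that left out 1 library, Dnajc3 in 5, Manf in 4, Tram1 and Sec61b in 3, Erp29 and Vcp in 2 and Ssr3 in 1. The count of lower genes in the 4 lists was 2 without KO replicate 2, 3 without WT replicate 3 and 4 without KO replicate 3. It was 13 with DESeq2, 9 with limma-voom and 3 with limma on log2(RPKM + 1). It was 5 with length and GC offsets, where Tram1, Sec61b and Ssr3 no longer passed. The number of higher genes was 0 in each of those fits and 1 without WT replicate 1, where Sec63, a translocon partner with a J domain named here after its values were seen, passed (log2 fold change 0.57, edgeR adjusted p = 0.0205).

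**Figure D4:**
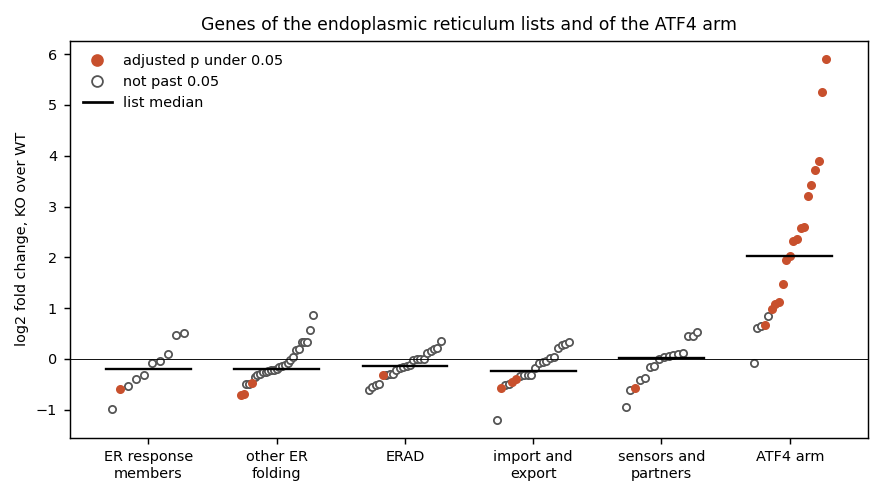
Log2 fold change of KO over WT for each tested gene (points) of the ER members, 4 further ER lists and the ATF4 list, with list medians as bars and genes past an adjusted p of 0.05 filled. The medians of the 5 ER groups lie between -0.25 and 0.02, while that of the ATF4 list is 2.02.

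Transcripts that IRE1 is known to cut were too few to describe as a group, with 4 of 6 tested. Of these, 3 had a negative and 1 a positive log2 fold change. At an unadjusted p under 0.05, 2 were lower and 0 higher (edgeR), where 12.3% and 12.7% of all genes were. Bloc1s1, the best known of them in mouse cells, stood at 27.8, 39.0 and 45.6 CPM in WT and 23.0, 11.9 and 19.6 CPM in KO. It fell by 1.04 on the log2 scale (SE 0.29, edgeR adjusted p = 0.0237). The call was kept in 2 of the 6 fits that left out 1 library, and was lost with length and GC offsets (edgeR, adjusted p = 0.0574) and on RPKM (limma, adjusted p = 0.0523).

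The paralogues of Hspa5 and Hsp90b1 in other compartments had other values. Mitochondrial Hspa9 rose by 1.07 on the log2 scale (95% interval 0.87 to 1.26), against -0.39 for Hspa5 of the ER. Cytosolic Hspa8 fell by 0.38 (95% interval -0.56 to -0.19), a call kept in 3 of the 6 fits that left out 1 library and lost on leaving out the first WT library or either the second or the third KO library. The Hspa8 call was also lost on RPKM (limma, adjusted p = 0.128). Mitochondrial Trap1 rose by 0.67 (95% interval 0.43 to 0.91) and cytosolic Hsp90ab1 by 0.42 (95% interval 0.25 to 0.59). Hsp90b1 of the ER stood at -0.04 and cytosolic Hsp90aa1 at 0.20 (edgeR adjusted p = 0.199). Differences between paralogues were not tested.

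Marker genes of other cell types were summed in each library, and the sums were not tested. The summed level of 10 macrophage genes was 358, 199 and 1107 CPM in WT replicates 1 to 3 and 152, 89.7 and 102 CPM in KO replicates 1 to 3. Every KO sum lay below every WT sum. All 10 genes had negative log2 fold changes, with a median of -3.16. At the adjusted p 1 of them, Lyz2, was lower, and 4 were at an unadjusted p under 0.05 (edgeR). Among all genes tested 4.99% and 12.3% were lower. WT replicate 3, which had the highest macrophage sum, was also the highest WT library for Calr, Hspa5, Hsp90b1 and Pdia4. Without that library the log2 fold change of Calr was -0.42 (edgeR). The macrophage sums of the other WT libraries, 358 and 199 CPM, still lay above every KO sum. Hepatoblast genes summed to 69.5 to 145 CPM in WT and 29.0 to 78.3 CPM in KO, so the groups overlapped, and 2 of 10 tested genes, Ttr and Trf, were lower. Ttr had 108, 9 and 20 counts in WT and 0 in each KO library. Its call was lost without WT replicate 1 (edgeR adjusted p = 0.137), while that of Trf was kept in all 6 fits that left out 1 library. Granule genes of granulocytes, mast cells and basophils summed to 263 to 327 CPM in WT and 196 to 209 CPM in KO, most of it Mpo of neutrophil precursors, which fell (log2 fold change -0.62). Within that list Prss34, a mast cell and basophil protease, went the other way, from 0.435 ± 0.241 CPM in WT to 9.58 ± 8.84 CPM in KO (SD, n = 3 each; log2 fold change 4.45, edgeR adjusted p = 0.00334). Its call was lost without KO replicate 3 (edgeR adjusted p = 0.132) and with limma-voom (adjusted p = 0.170). Cpa3 of mast cells had 3.16 ± 2.15 and 9.49 ± 8.10 CPM (SD, n = 3 each) and did not pass (edgeR adjusted p = 0.184). Erythroid genes summed to 76.8 to 157 CPM in WT and 14.7 to 22.9 CPM in KO, and 3 of 4 tested genes, Alas2, Klf1 and Epb4.2, were lower. Klf1 kept its call in 3 of the 6 fits that left out 1 library, and Alas2 and Epb4.2 in all 6. Hbb-b1 and Hba-a1 had 0 counts in all 6 libraries of the count table. The deposited RPKM table differed from it for Hbb-b1, with 373, 20.2 and 0.0012 RPKM in WT and 48.5, 0.00094 and 234 RPKM in KO, so the counts do not show that this globin was absent. Hba-a1 was at most 0.0025 RPKM. Genes of the B lineage and of antibody-secreting cells summed to 60.0 to 74.8 CPM in WT and 47.3 to 53.5 CPM in KO, and 0 of 3 tested genes passed (edgeR; 0 at an unadjusted p under 0.05). The part of these cells in the changes of Calr and of the other ER genes was not tested. In bulk libraries, fewer cells of a type and less RNA per cell cannot be told apart.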

How the data were processed

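Libraries came from total RNA of fetal liver HSCs by a stranded pico-input kit, per the labels' protocols. The authors deposited read counts per gene symbol and RPKM values. TopHat, Cufflinks and the build mm9 are named, per the submitters' processing notes. No source used here gives their versions, the read counter, the annotation or the strand setting. The RPKM values do not follow from the counts by 1 length per gene: for the 10 members their ratio to CPM varied between libraries by 1.04 to 1.20 times.

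The count test was the robust quasi-likelihood test of edgeR 4.0.16 (R 4.3.3) with group as the only term, after filterByExpr and TMM scaling, with Benjamini-Hochberg adjustment over 12204 genes and a threshold of 0.05. SEs are the log2 fold change over the square root of F. CPM used TMM library sizes. Ratios to Atf4 were tested with limma 3.58.1 on log2 CPM with a prior count of 2. Alternatives used DESeq2 1.42.0, limma-voom, other scalings, log2(RPKM + 1) and log2(RPKM + 0.1), length and GC offsets from GENCODE transcripts (99.45% of genes matched), a Y-linked covariate, a replicate block and leaving out each library. On simulated counts for 12204 genes, edgeR recovered 43.5% of 200 genes changed 2-fold, over all expression levels, with 10 false calls. Promoters came from RefSeq (GRCm38.p6) and 9 of 10 members matched. Replicate pairs differed beyond counting noise (chi-square of 21.7 to 43.1 per degree of freedom).

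The members and lists were chosen with earlier results of these data known. Named genes are the 10 members, Uqcrfs1, Atf4, 11 fixed partners and paralogues, and per list at most 4 genes past the threshold in each direction (4 in all for the ATF4 list), by smallest p.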

Additional observations from a re-analysis of the deposited data

How the results depend on the processing

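Calr lost its call on RPKM only, so the count of lower members was 0 with limma on log2(RPKM + 1) and on log2(RPKM + 0.1). It was 2, with Hspa5 added, with upper quartile scaling, DESeq2, limma-voom and no filter. The count of higher members was 0 under every alternative run. Over all genes, limma on log2(RPKM + 1) called 348 higher and 235 lower, and on log2(RPKM + 0.1) 337 and 223. In the 4 other ER lists, the lower count was 13 with DESeq2, 3 with either RPKM setting and 5 with length and GC offsets. Leaving out 1 library gave 450 to 716 higher and 270 to 517 lower genes in all, with the fewest without KO replicate 2, 1 to 2 lower members (2 without WT replicate 2), and 2 to 9 lower and 0 to 1 higher genes of the 4 ER lists. The ATF4 list had 15 to 18 higher genes in those fits. Among the members and named genes, signs turned for these: Hsp90b1 to 0.036 on either RPKM setting, 0.080 with length and GC offsets and 0.13 without WT replicate 3 (lowest -0.16), Xbp1 to -0.10 without WT replicate 3 and -0.05 without KO replicate 3 (highest 0.38), Atf6 to 0.10 without KO replicate 1 (lowest -0.26), Eif2ak3 to 0.10 without WT replicate 3 (lowest -0.60), Mbtps1 to -0.016 with length and GC offsets, and Mbtps2 to -0.0015 and -0.0023 on RPKM, -0.013 with the Y-linked covariate, -0.18 without WT replicate 1 and -0.27 without KO replicate 1 (highest 0.20). The cause was not tested. With the replicate block, 762 genes were higher and 579 lower and 1 member was lower. Same-numbered libraries had correlations of deviations of 0.02, 0.01 and -0.003, and not every library correlated best with its own number. These values were not tested and cannot show how same-numbered libraries were related. Dnajb9 and Sdf2l1 had the fewest reads of the members, 115 to 369 per library, and replicate libraries differed beyond counting noise.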
